A study of Mus musculus with 38 samples.

Results

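The comparison described here is that of LAD + Myriocin mice with LAD mice 96 h after surgery, in the at-risk area of the left ventricle. Its members were chosen by the sample titles, and are 7 LAD + Myriocin and 7 LAD mice, 14 of the 38 mice of the series. LAD mice had the left anterior descending coronary artery tied for 30 min and received empty solid lipid nanocarriers, the particles that carry the drug. LAD + Myriocin mice had the same occlusion, and 20 µL of Myriocin-loaded nanocarriers (SLN/Myr, a 1 mM stock diluted 1:4) were injected when reperfusion began, into the muscle of the left ventricle by the labels and into the ventricle by the methods. Sham mice at 96 h, of which there were 5, had the surgery without the ligature and give the background level. All mice were male C57BL/6N of 8 to 10 weeks. The samples are bulk tissue, which holds every cell type of the area. In such samples fewer cells of a type and less transcript per cell cannot be told apart, and the panel has no list of markers for other cell types.

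Myriocin inhibits serine palmitoyltransferase, the enzyme that opens sphingolipid synthesis, and so lowers the making of ceramide. Adult heart muscle draws most of its energy from fatty acids, which enter through membrane carriers, are bound in the cytosol, are passed into mitochondria by carnitine palmitoyltransferases and are then shortened by acyl-CoA dehydrogenases. The nuclear receptors of the PPAR family and their co-activator PGC-1α switch on many of these genes. Injured heart muscle is known to shift away from fatty acids and to raise β-myosin heavy chain, the fetal form of the motor protein, against the adult α form. The study asked by qRT-PCR whether Myriocin changes transcripts of this kind after ischemia and reperfusion.

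The primer panel covers 21 target genes and the endogenous control RPLI. It holds the myosin heavy chains MYH6 and MYH7, the transcription regulators PPARGC1A, PPARA, PPARG, PPARD and TFEB, and SQSTM1, which encodes the autophagy adaptor p62. It holds the uptake and binding genes VLDLR, CD36, FABP3 and SLC27A1, the mitochondrial import and carrier genes CPT1A, CPT1B and UCP3, the dehydrogenases ACADM and ACADL, the lipase LIPE, and the perilipins PLIN2, PLIN4 and PLIN5 that coat lipid droplets. The control pair is shown because every relative value rests on it, and a pair from each of 5 roles is shown as an example of what was amplified. All are written 5′ to 3′ in lower case.
RPLI forward primer: ctcggccgttctcctgta
RPLI reverse primer: gtggaagtggggcttcag
MYHC7 (MYH7, β-myosin heavy chain) forward primer: gcattctcctgctgtttcctt
MYHC7 (MYH7, β-myosin heavy chain) reverse primer: tggattctcaaacgtgtctagtga
PPARA (fatty acid sensing nuclear receptor) forward primer: accttcctcttcccaaagctc
PPARA (fatty acid sensing nuclear receptor) reverse primer: ttgatgacctgtacgagctgc
CD36 (fatty acid uptake at the cell surface) forward primer: ggaactgtgggctcattgct
CD36 (fatty acid uptake at the cell surface) reverse primer: gaatgcctccaaacacagcc
CPT1B (mitochondrial fatty acid import) forward primer: cgtgaagagatcaagccggt
CPT1B (mitochondrial fatty acid import) reverse primer: cctgggatgcgtgtagtgtt
ACADM (first step of medium-chain β-oxidation) forward primer: gaaccagacctacagtcgca
ACADM (first step of medium-chain β-oxidation) reverse primer: agggcatacttcgtggcttc
The primers of the panel are 17 to 24 bases long. The Ct table lists the 21 target assays under plate codes, A01 to A12 and B01 to B09. No table used here pairs these codes with the genes of the panel, so each result is given by its code and is assigned to no gene, and no list of genes by role could be counted.

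The measured quantity is the threshold cycle (Ct), the cycle at which the fluorescence of the growing product passes a set level, so that 1 cycle less stands for about 2 times more transcript. In the 14 mice a target Ct and the Ct of the reference assay B10, listed directly below it, were both present in 224 of 294 combinations of assay and mouse, and 70 were empty. This left 4 to 7 mice of each group per assay. Target Ct ran from 15.7 to 35.7 and 4 values lay above 35. Reference Ct ran from 21.8 to 31.8, and 32 readings lay above 28, 15 of them in LAD and 17 in LAD + Myriocin mice. To obtain relative expression, the target Ct was subtracted from the reference Ct listed with it. It is on a log2 scale, where a value further above 0 stands for more transcript. Subtracting the reference made the spread between mice smaller than that of the target Ct in 38 of the 42 groups. How many wells stand behind each Ct is not known here, so the error of a single reading is not known either.

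Reference readings tied assays to each other. Of 155 distinct reference readings in these mice, 53 recurred to the last decimal in a second assay or more, and 34 of the 53 recurred under another sample number. Of the 155, 0 were shared between LAD and LAD + Myriocin mice. A10 and A12 shared 8 readings, as did B05 and B06 and also B08 and B09. A sample number therefore may not stand for the same mouse in every assay, and assays that share readings are not independent of each other. Within 1 assay, B03, LAD + Myriocin replicates 5 and 6 carried the same reference Ct of 26.0, and their target Ct differed by 0.0349 cycles. Counted as 1 mouse, a choice made after the values were seen, they left B03 called.

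Transcripts of this panel were mostly higher in LAD + Myriocin than in LAD mice at 96 h. With means compared by exact permutation, two-sided, 16 of the 21 assays (76.2%) passed an unadjusted p of 0.05, 15 higher (71.4%) and 1 lower (4.76%) with Myriocin. The difference was above 0 in 19 of the 21 assays, with a median of 1.54 on the log2 scale. The 15 higher assays rose by between 1.75-fold (A07) and 23.1-fold (B07), and 6 of them by at least 4-fold. In 12 of the 21 assays, against the 76.2% called, each LAD + Myriocin mouse lay above each LAD mouse. The 16 assays kept a Benjamini-Hochberg adjusted p under 0.05 over the 21 assays, and 0 did when the adjustment took in all 6 group comparisons of the series, where the lowest adjusted p was 0.053. In the 12 assays without overlap the exact p was the smallest that the number of mice allows, which follows from the separation and is no further result.

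**Figure D1:**
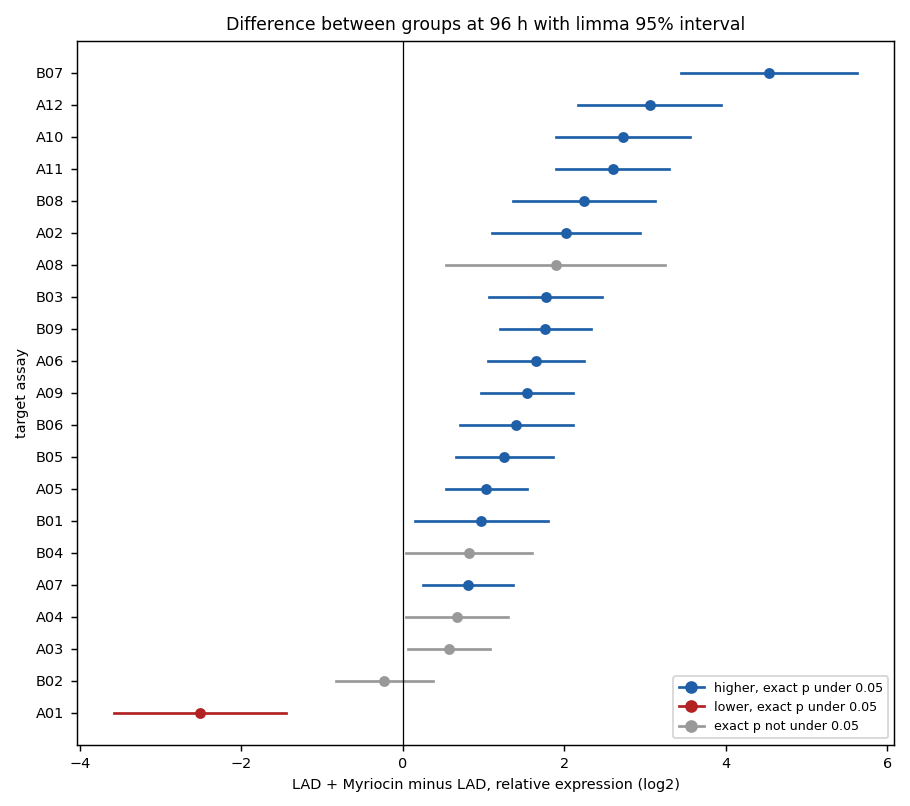
Difference in mean relative expression (LAD + Myriocin minus LAD at 96 h, log2, horizontal axis) for each of the 21 target assays, with the limma 95% interval as a line and the color showing the exact permutation call. B07 stands furthest to the right at 4.53, and A01, at -2.51, is the only assay called lower.

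Among the higher assays, A02 was 4.06-fold higher with Myriocin. In LAD mice its relative expression was 8.92, 8.61, 6.58 and 7.14, a mean of 7.81 ± 1.13 (SD, n = 4). In LAD + Myriocin mice A02 was at 10.12, 9.73, 10.37 and 9.12, a mean of 9.83 ± 0.54 (SD, n = 4). The groups did not overlap, and replicates 3 and 4 of the LAD group were the lowest. For A02 the log2 difference was 2.02 ± 0.63 (SE) with the smallest p that 4 mice against 4 allow (exact permutation test, p = 0.0286, adjusted p = 0.0417). Sham mice lay at 10.05, 10.19 and 11.34, above each LAD mouse. With the target Ct alone the difference was 1.55 (exact permutation test, p = 0.0571), and without any 1 of its mice the assay could no longer reach 0.05.

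A05 rose 2.05-fold relative to the reference. LAD mice ran from -2.48 to -1.75, with a median of -1.98, a mean of -2.07 ± 0.34 (SD, n = 6). LAD + Myriocin mice were at -1.51, -1.38, -0.45, -1.09 and -0.74, a mean of -1.03 ± 0.44 (SD, n = 5), each above the highest LAD mouse. For A05 the log2 difference was 1.03 ± 0.24 (SE) (exact permutation test, p = 0.00433, adjusted p = 0.013), and 4 of the 5 treated mice were still below the sham values of -0.59, -0.60 and -0.35. The direction of A05 depended on the reference. Its reference Ct was 24.6 ± 1.39 (SD, n = 6) in LAD and 27.7 ± 1.37 (SD, n = 5) in LAD + Myriocin mice, a difference of 3.07 cycles (exact permutation test, p = 0.00433). The target Ct moved the same way by less, so that on target Ct alone A05 was lower with Myriocin, at -2.04 (exact permutation test, p = 0.013). With reference Ct above 28 left out the log2 difference was 0.62, at a p of 0.0714 that is the smallest the remaining mice allow (exact permutation test).

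A06 rose 3.13-fold. Its values were -5.36, -5.97, -6.14, -5.28 and -4.59 in LAD mice, a mean of -5.47 ± 0.62 (SD, n = 5). In treated mice A06 ran from -4.45 to -3.06, with a median of -3.85, a mean of -3.82 ± 0.52 (SD, n = 6). The groups did not overlap, and 5 of the 6 treated mice lay above the 5 sham mice, which were close together from -4.63 to -4.37. This log2 difference was 1.65 ± 0.35 (SE) (exact permutation test, p = 0.00433, adjusted p = 0.013). On target Ct alone it was of the same size, 1.67, with a wider spread (exact permutation test, p = 0.177).

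A07 had the smallest of the called rises, 1.75-fold. LAD mice were at -4.49, -4.03, -4.71 and -4.40, a mean of -4.41 ± 0.28 (SD, n = 4). Treated mice were at -3.59, -2.72, -3.65, -3.96 and -4.09, a mean of -3.60 ± 0.53 (SD, n = 5), with replicate 2 well above the others. The lowest treated mouse lay just under the highest LAD mouse, and the sham values of -4.24, -4.00 and -4.18 fell where the groups met. For A07 the log2 difference was 0.81 ± 0.28 (SE) (exact permutation test, p = 0.0317, adjusted p = 0.0417). Without LAD replicate 2, 4 or 5, or without LAD + Myriocin replicate 1, 2, 3 or 4, A07 was no longer called (exact permutation test, p between 0.0571 and 0.0714), and on target Ct alone its difference was 1.32 (exact permutation test, p = 0.333). With reference Ct above 28 left out its log2 difference was 0.93, at a p of 0.0571 that is the smallest the remaining mice allow (exact permutation test).

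A09 rose 2.90-fold, with treated mice in a narrow band. LAD mice were at -2.79, -3.29, -1.95, -2.29 and -3.20, a mean of -2.70 ± 0.58 (SD, n = 5). Treated mice were at -1.20, -1.07, -1.22, -1.02 and -1.31, a mean of -1.17 ± 0.12 (SD, n = 5). The lowest treated mouse was 0.63 above the highest LAD mouse, and the treated mice came close to the sham values of -1.04, -0.69 and -0.85. For A09 the log2 difference was 1.54 ± 0.26 (SE) (exact permutation test, p = 0.00794, adjusted p = 0.0152, the smallest p for 5 mice against 5). Target Ct alone gave 2.74 (exact permutation test, p = 0.0159).

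A10, A11 and A12 rose by 6.05-fold to 8.32-fold, and they were measured partly against the same reference readings. For A10, LAD mice were at -6.36, -6.01, -4.60, -5.14 and -7.86, a mean of -6.00 ± 1.25 (SD, n = 5), while treated mice were at -3.10, -3.20, -3.47, -3.05 and -3.53, a mean of -3.27 ± 0.22 (SD, n = 5). LAD replicate 5 was the lowest, and each treated mouse was above each LAD mouse and above the sham values of -4.00, -4.19 and -3.54. The log2 difference of A10 was 2.72 ± 0.57 (SE), 6.61-fold (exact permutation test, p = 0.00794, adjusted p = 0.0152).
For A11, LAD mice were at -0.35, -0.16, -1.60, 1.09 and -0.45, a mean of -0.29 ± 0.96 (SD, n = 5), and treated mice at 2.38, 2.16, 2.57, 2.42 and 2.00, a mean of 2.30 ± 0.22 (SD, n = 5). Each treated mouse was inside the sham range of 1.81 to 2.84, and each LAD mouse below it. The log2 difference of A11 was 2.60 ± 0.44 (SE), 6.05-fold (exact permutation test, p = 0.00794, adjusted p = 0.0152).
For A12, LAD mice ran from 1.75 to 5.02, with a median of 3.96, a mean of 3.65 ± 1.20 (SD, n = 6). Treated mice were at 6.06, 7.22, 6.84, 6.30 and 7.09, a mean of 6.70 ± 0.50 (SD, n = 5), between the LAD mice and the sham mice, which were at 8.07, 7.26 and 7.91. The log2 difference of A12 was 3.06 ± 0.54 (SE), 8.32-fold (exact permutation test, p = 0.00433, adjusted p = 0.013). In these 3 assays the reference Ct of the groups differed by 0.0931 cycles or less. Their differences on target Ct alone were close to those above, with 2.65 for A10, 2.50 for A11 and 3.12 for A12 (exact permutation tests, p = 0.0317, 0.00794 and 0.00433 in that order).

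B01 rose 1.96-fold. Its LAD mice were at -6.59, -5.96, -7.26 and -6.99, a mean of -6.70 ± 0.56 (SD, n = 4), and treated mice at -5.38, -5.97, -5.53, -5.92 and -5.83, a mean of -5.73 ± 0.26 (SD, n = 5). The groups met at the edge, LAD replicate 3 lying just above the lowest treated mouse. All 5 treated mice were above the sham values, which were far apart at -6.74, -6.12 and -7.66. For B01 the log2 difference was 0.97 ± 0.30 (SE) (exact permutation test, p = 0.0317, adjusted p = 0.0417). Without LAD replicate 2, 6 or 7, or LAD + Myriocin replicate 1, 5, 6 or 7, it was no longer called (exact permutation test, p between 0.0571 and 0.0714), nor was it on target Ct alone, at 1.66 (exact permutation test, p = 0.111).

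B03 rose 3.41-fold, from LAD levels that overlapped those of sham mice. LAD mice ran from -3.78 to -2.15, with a median of -2.79, a mean of -2.91 ± 0.69 (SD, n = 6). Treated mice ran from -1.56 to -0.91, with a median of -1.05, a mean of -1.14 ± 0.25 (SD, n = 7). Each treated mouse was above each LAD and each sham mouse, and 5 of the 6 LAD mice were inside the sham range of -4.78 to -2.24. For B03 the log2 difference was 1.77 ± 0.30 (SE) (exact permutation test, p = 0.00117, adjusted p = 0.013). This exact p was the lowest of the 21 assays, and it is the smallest that 6 mice against 7 allow. Its rank follows from the separation and the number of mice. With treated replicates 5 and 6 counted as 1 mouse it was 0.00216 (exact permutation test). On target Ct alone the difference of B03 was 2.61 (exact permutation test, p = 0.0897).

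B05 rose 2.39-fold. LAD mice ran from -4.92 to -3.59, with a median of -3.99, a mean of -4.06 ± 0.46 (SD, n = 6), with replicate 4 apart from the rest. Treated mice were at -2.36, -3.20, -2.67, -2.63 and -3.15, a mean of -2.80 ± 0.36 (SD, n = 5). The groups did not overlap, and the treated mice lay around the sham values of -3.67, -2.70 and -3.25. For B05 the log2 difference was 1.26 ± 0.25 (SE) (exact permutation test, p = 0.00433, adjusted p = 0.013). The same difference on target Ct alone was 2.78 (exact permutation test, p = 0.113).

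B06 rose 2.65-fold. LAD mice were at -1.77, -2.84, -2.90 and -2.96, a mean of -2.62 ± 0.57 (SD, n = 4), and treated mice at -1.77, -1.16, -0.92, -1.07 and -1.15, a mean of -1.21 ± 0.32 (SD, n = 5). Replicate 2 of each group lay away from the rest, and these 2 mice were equal to the second decimal, so that the groups were separated only from the fourth decimal on. Sham mice were at -1.71, -1.26 and -1.39, above each LAD mouse. For B06 the log2 difference was 1.40 ± 0.32 (SE) (exact permutation test, p = 0.0159, adjusted p = 0.0256, the smallest p for 4 mice against 5). Target Ct alone gave 4.03, in mice whose reference Ct was 27.9 ± 3.52 (SD, n = 4) without and 25.2 ± 2.18 (SD, n = 5) with Myriocin (exact permutation test of the target Ct, p = 0.111). With reference Ct above 28 left out the log2 difference was 1.26, in a design that could not reach 0.05 (exact permutation test, p = 0.133).

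B07 had the largest difference of the 21 assays, 23.1-fold. LAD mice were at -11.35, -10.46, -12.00 and -12.37, a mean of -11.55 ± 0.84 (SD, n = 4). Treated mice were at -6.42, -7.33, -7.30, -6.94 and -7.09, a mean of -7.01 ± 0.37 (SD, n = 5). The gap between the groups was 3.14, and the treated mice lay inside the wide sham range of -8.84 to -5.51. For B07 the log2 difference was 4.53 ± 0.45 (SE) (exact permutation test, p = 0.0159, adjusted p = 0.0256, the smallest p for 4 mice against 5).
B07 was also a late assay whose reference differed between the groups. Its target Ct was 34.4 ± 0.654 (SD, n = 4) in LAD and 32.7 ± 2.71 (SD, n = 5) in LAD + Myriocin mice, and its reference Ct 22.8 ± 0.211 (SD, n = 4) and 25.7 ± 2.83 (SD, n = 5), a reference difference of 2.88 cycles (exact permutation test, p = 0.0317). The difference in target Ct alone was 1.65, within the spread of the mice (p = 0.27 by exact permutation). With target Ct above 35 left out it was 4.16 relative to the reference, and 3 mice against 3 could not go below p = 0.1 (exact permutation test). With reference Ct above 28 left out the log2 difference of B07 was 4.44, at a p of 0.0571 that is the smallest the remaining mice allow (exact permutation test).

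B08 rose 4.75-fold. LAD mice ran from -2.42 to 0.15, with a median of -1.33, a mean of -1.22 ± 0.94 (SD, n = 7). Treated mice were at 1.06, 0.81, 1.90, 0.13 and 1.25, a mean of 1.03 ± 0.64 (SD, n = 5). LAD replicate 2 and LAD + Myriocin replicate 6 overlapped by 0.02, and the sham values of 2.49, 2.55 and 4.21 were above both groups. For B08 the log2 difference was 2.25 ± 0.46 (SE) (exact permutation test, p = 0.00505, adjusted p = 0.0133), and target Ct alone gave 3.20 (exact permutation test, p = 0.00505).

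B09, which shared most of its reference readings with B08, rose 3.40-fold. LAD mice were at -0.65, 0.41, -0.24, -0.59 and 0.05, a mean of -0.20 ± 0.44 (SD, n = 5). Treated mice ran from 0.87 to 1.94, with a median of 1.65, a mean of 1.56 ± 0.38 (SD, n = 6), each above each LAD mouse and below the sham values of 2.61, 2.35 and 2.14. For B09 the log2 difference was 1.77 ± 0.25 (SE) (exact permutation test, p = 0.00433, adjusted p = 0.013). It was 2.11 on target Ct alone (exact permutation test, p = 0.0996).

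**Figure D2:**
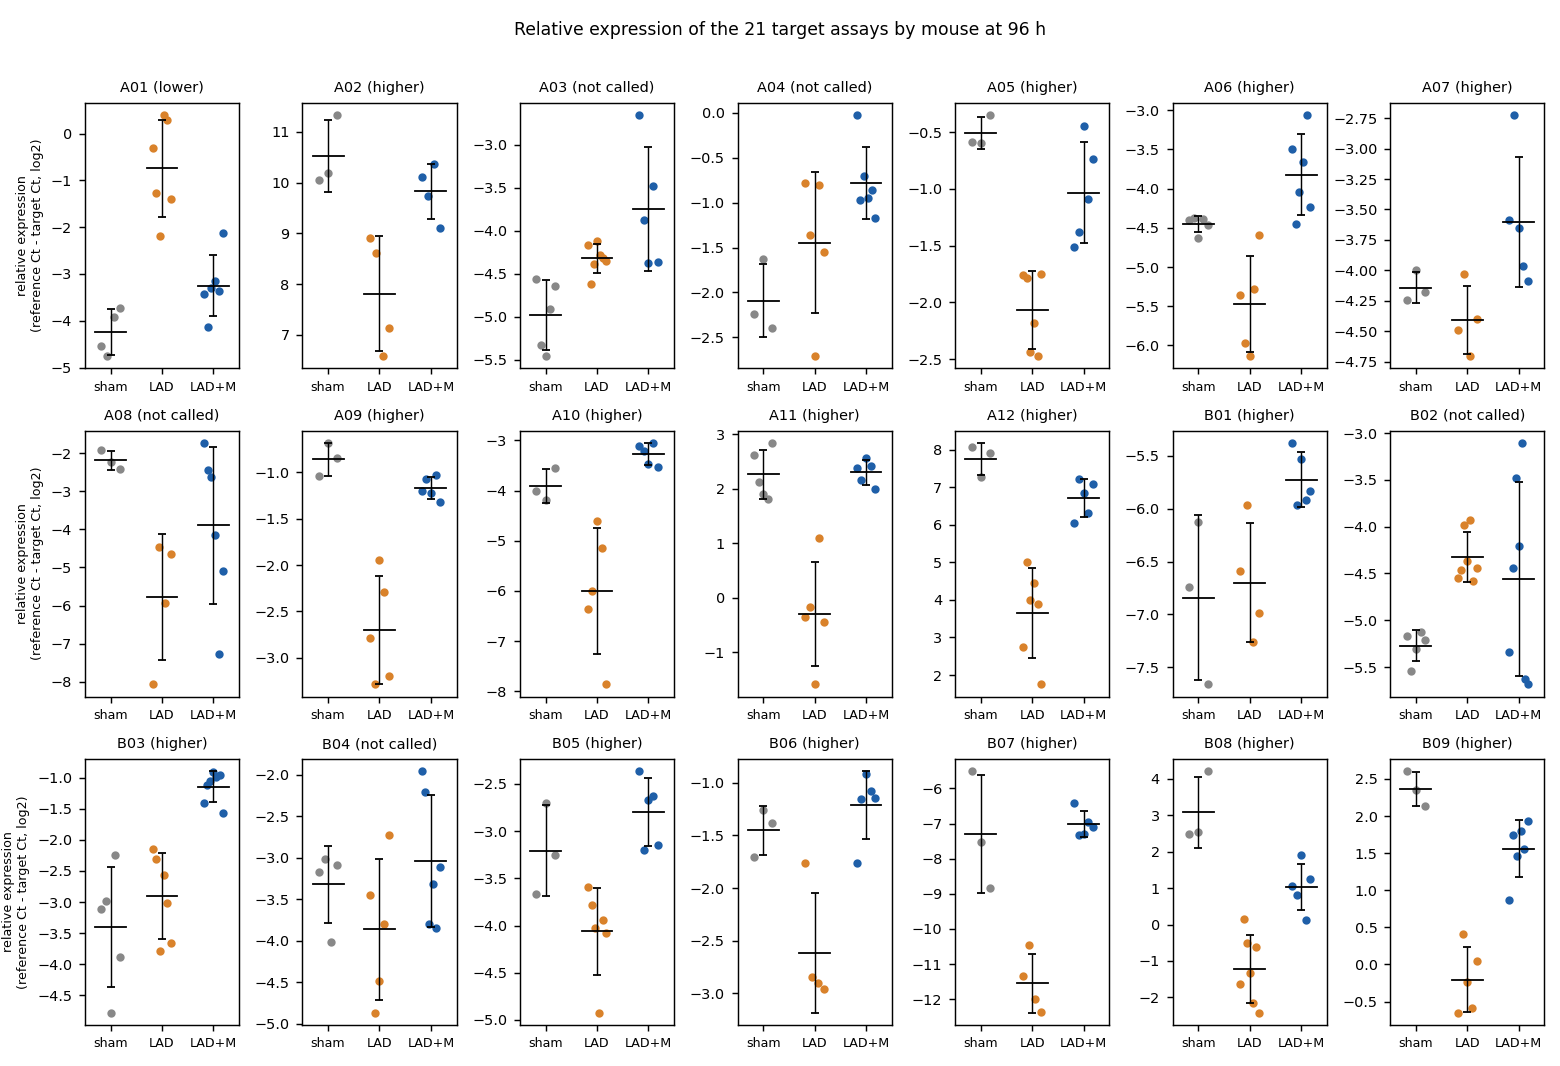
Relative expression (reference Ct minus target Ct, log2, vertical axis, with its own range in each panel) of each mouse at 96 h in the 21 target assays, for sham (gray), LAD (orange) and LAD + Myriocin (LAD+M, blue) mice, with the mean and SD as lines. The title of each panel gives its call between LAD + Myriocin and LAD. These 2 groups do not overlap in 12 panels, and the gap between them is widest in A09, A10, A11, A12 and B07.

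A01 was the assay that fell with Myriocin. LAD mice ran from -2.19 to 0.40, with a median of -0.78, a mean of -0.74 ± 1.04 (SD, n = 6), all above the sham values of -4.55, -4.76, -3.93 and -3.73. LAD + Myriocin mice ran from -4.13 to -2.13, with a median of -3.33, a mean of -3.25 ± 0.65 (SD, n = 6), and 5 of the 6 were still above the sham mice. The groups met at 1 point, where LAD + Myriocin replicate 6 lay 0.06 above LAD replicate 3. For A01 the log2 difference was -2.51 ± 0.50 (SE), 5.70-fold lower (exact permutation test, p = 0.00433, adjusted p = 0.013). A01 also passed on target Ct alone, where it was -2.87 (p = 0.0411 by exact permutation), and leaving out any 1 mouse kept it between -2.80 and -2.28.

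In 5 assays the exact test did not pass. A03 was at -2.65, -3.88, -4.37, -3.48 and -4.37 in treated mice, a mean of -3.75 ± 0.72 (SD, n = 5), while LAD mice ran from -4.62 to -4.12, with a median of -4.32, a mean of -4.32 ± 0.17 (SD, n = 7). LAD + Myriocin replicates 3 and 7 lay among the LAD mice and the other 3 above them. For A03 the log2 difference was 0.57 ± 0.33 (SE) (exact permutation test, p = 0.0707, adjusted p = 0.0873). It was 0.30 without LAD + Myriocin replicate 1 (exact permutation test, p = 0.17), and without replicate 3 or 7 of that group it passed at 0.73 (exact permutation test, p = 0.0364 in both).

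A04 was at -0.78, -1.36, -2.71, -0.81 and -1.55 in LAD mice, a mean of -1.44 ± 0.79 (SD, n = 5), and ran from -1.17 to -0.02, with a median of -0.91 in treated mice, a mean of -0.78 ± 0.40 (SD, n = 6). Here LAD replicate 4 was far below the others, and the treated mice were all above the sham values of -2.24, -1.63 and -2.40. For A04 the log2 difference was 0.67 ± 0.39 (SE) (exact permutation test, p = 0.0909, adjusted p = 0.106). It was 0.35 without LAD replicate 4 (exact permutation test, p = 0.2), and it passed without LAD replicate 2, at 0.83, or replicate 5, at 0.82 (exact permutation test, p = 0.0476 in both).

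A08 had the widest spread among treated mice. LAD mice were at -8.07, -4.46, -5.93 and -4.66, a mean of -5.78 ± 1.66 (SD, n = 4). Treated mice ran from -7.27 to -1.73, with a median of -3.39, a mean of -3.89 ± 2.06 (SD, n = 6), and all 3 sham mice, at -1.91, -2.24 and -2.41, were above the LAD mice. For A08 the log2 difference was 1.89 ± 1.18 (SE) (exact permutation test, p = 0.152, adjusted p = 0.16) and was 1.13 without LAD replicate 1 (exact permutation test, p = 0.381).
After the values were seen, the mice of A08 were set beside their reference readings. In treated mice the 3 values at -1.73, -2.45 and -2.63 had reference readings that recur in assay B05, and the 3 at -4.15, -7.27 and -5.11 did not. In LAD mice 3 values, -8.07, -4.46 and -5.93, had readings that recur in B05, and the value at -4.66 did not. That LAD value and the treated values at -7.27 and -5.11 had readings that recur in A07. Among sham mice the value with a reading in B05, -1.91, lay near the others, -2.24 and -2.41. Within the mice tied to B05 the difference of the means was 3.89, and among the other mice, with 1 LAD mouse, it was -0.85; neither has a test that could reach 0.05.

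B02 differed least, with treated mice spread to both sides of the LAD mice. LAD mice ran from -4.58 to -3.92, with a median of -4.44, a mean of -4.33 ± 0.27 (SD, n = 7). Treated mice ran from -5.69 to -3.10, with a median of -4.44, a mean of -4.56 ± 1.04 (SD, n = 7). Replicates 1, 6 and 7 of the treated group were below each LAD mouse, and replicates 3 and 5 above each of them. For B02 the log2 difference was -0.23 ± 0.40 (SE) (exact permutation test, p = 0.575, adjusted p = 0.575), with a limma 95% interval from -0.83 to 0.38. Its size rested on single mice, from -0.04 without LAD + Myriocin replicate 7 to -0.47 without replicate 5 of that group (exact permutation test, p = 0.915 and 0.199). LAD mice were close together and all above the 5 sham mice, which ran from -5.54 to -5.13.

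B04 was at -3.45, -4.86, -4.48, -3.80 and -2.72 in LAD mice, a mean of -3.86 ± 0.85 (SD, n = 5). It ran from -3.85 to -1.96, with a median of -3.21 in treated mice, a mean of -3.04 ± 0.80 (SD, n = 6), where replicates 1 and 2 stood above the others. For B04 the log2 difference was 0.82 ± 0.50 (SE) (exact permutation test, p = 0.126, adjusted p = 0.139), and of the sham values, -3.17, -3.01, -4.02 and -3.09, 3 lay within the treated range and replicate 3 below it. For A03, A04, A08 and B04 the limma intervals over all 38 mice excluded 0. They ran from 0.07 to 1.08 in A03, from 0.03 to 1.30 in A04, from 0.54 to 3.25 in A08 and from 0.04 to 1.61 in B04. With limma on the 14 LAD and LAD + Myriocin mice alone, none of these 4 assays passed and the 16 called assays were those of the exact test. Among the limma fits, A03 and A04 were called only where the other mice of the series enter the estimate of the spread. A08 and B04 were also called on the 14 mice once the replicate number was added as a block. That block assumes that same-numbered mice of the groups belong together, which cannot be decided here. It took the p of A08 from 0.0705 to 1.1e-11 (limma over 14 mice), where the exact permutation test gave p = 0.152. The calls made with the block are therefore not read as a result.

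The level of the reference sets how far these differences hold. By sample number, the average reference Ct was 25.8 ± 0.517 (SD, n = 7) for LAD and, for treated mice, 25.7 ± 0.617 (SD, n = 7), a difference of -0.139 cycles (exact permutation test, p = 0.648). That test takes a sample number as 1 mouse in every assay, which may not hold, and its averages cover different assays. Within single assays the difference ran from -2.63 cycles in B06 to 3.07 in A05, and it had a p under 0.05 in 2 of the 21 assays, A05 and B07 (exact permutation test). On target Ct alone 7 assays were called, 5 higher (A09, A10, A11, A12 and B08) and 2 lower (A01 and A05), and A05 alone of the 15 higher assays turned. When the reference was replaced by the mean target Ct, which removes by construction a rise that the assays share, 0 assays were called higher and A01, A03, A05 and B02 lower. That scale moved the median difference of the panel by -1.12, and target Ct alone by 0.13. Against that mean, which takes a sample number as 1 mouse in every assay, A03, A04, A05 and B01 turned negative.

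**Figure D3:**
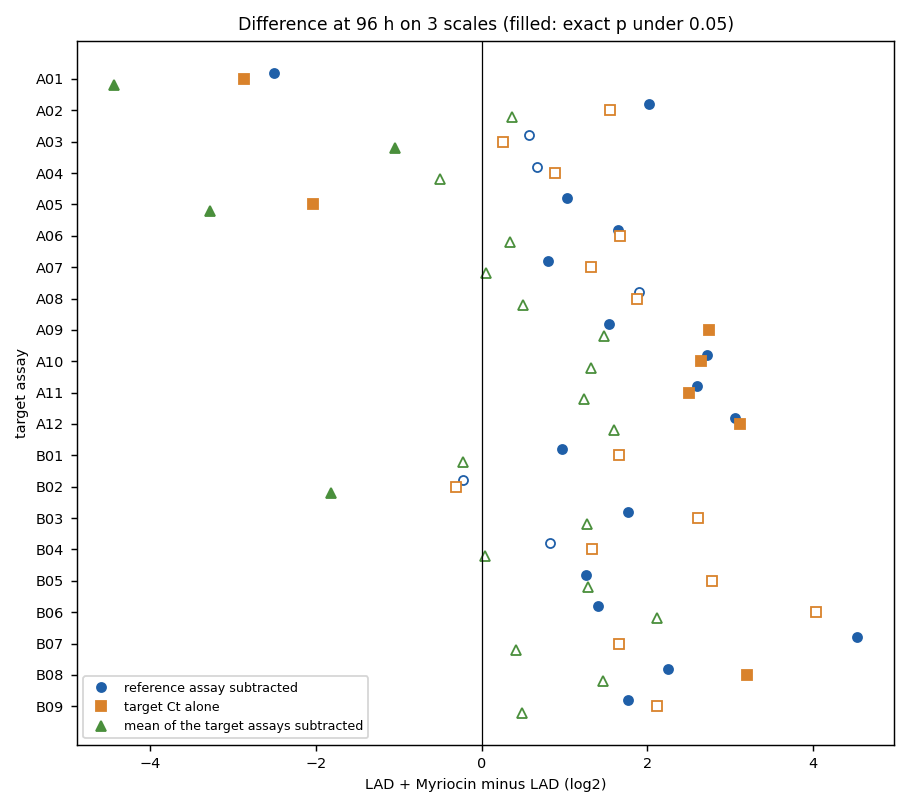
Myriocin difference at 96 h (LAD + Myriocin minus LAD, log2, horizontal axis) in each target assay on 3 scales, as relative expression (circles), as target Ct alone with its sign turned (squares) and against the mean of the target assays (triangles), filled where the exact p was under 0.05. A09, A10, A11, A12 and B08 are filled on the first pair of scales, A05 changes side, and A01 lies to the left on each of them.

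The same comparison at 24 h, in other mice, shows where 96 h differs. At 24 h 3 of the 21 assays (14.3%) were called by the exact test, and the median log2 difference was 0.19. A limma interaction over all 38 mice tested the difference at 96 h minus that at 24 h, and 12 assays (57.1%) had an adjusted p under 0.05, 11 of them larger at 96 h. These were B07, A12, A02, A11, A10, B08, B09, B03, A06, B06 and A09. In A02 the difference was -0.74 at 24 h and 2.02 at 96 h (limma interaction 2.76, adjusted p = 0.00064). A06 had -0.02 and 1.65 (interaction 1.66, limma adjusted p = 0.000612), and A11 had -0.12 and 2.60 (interaction 2.72, limma adjusted p = 1.8e-05). In B09 it was -0.01 at 24 h and 1.77 at 96 h (limma interaction 1.78, adjusted p = 0.000221). None of these 4 assays passed the exact test at 24 h.

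In 9 assays the interaction did not pass. In A05 the difference was 0.60 at 24 h and 1.03 at 96 h (limma interaction 0.43, adjusted p = 0.284), in B05 0.63 and 1.26 (interaction 0.62, limma adjusted p = 0.251), and in B01 0.47 and 0.97 (interaction 0.50, limma adjusted p = 0.38). A07 came nearest, with 0.05 and 0.81 (interaction 0.75, limma adjusted p = 0.0732). A01 had a log2 difference of -1.33 at 24 h and -2.51 at 96 h, and the first of these did not pass (exact permutation test, p = 0.109; limma interaction -1.19, adjusted p = 0.2). A03 and A08 passed at 24 h, with 1.03 for A03 and 0.93 for A08 (exact permutation tests, p = 0.00794 and 0.000583), and did not at 96 h, while the interaction was not shown for either, at -0.46 (limma adjusted p = 0.284) and 0.96 (limma adjusted p = 0.302). B02 was the assay whose interaction passed in the other direction, 1.07 at 24 h against -0.23, an interaction of -1.30 (limma, adjusted p = 0.0177). It rests on 4 LAD mice at 24 h and did not pass without replicate 2 of them, at -1.12 (limma, adjusted p = 0.0528). A07 passed without LAD replicate 3 or LAD + Myriocin replicate 5 of 96 h, A03 without LAD + Myriocin replicate 1 and A08 without LAD + Myriocin replicate 5 (limma adjusted p between 0.0358 and 0.0495).

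Without the reference assay 5 of the 12 interactions did not pass. That of B02 was 0.14 (limma, adjusted p = 0.768), and that of B07 was 1.62 (limma, adjusted p = 0.362) in place of 4.23. A06, B06 and B09 lay just outside the threshold, with 2.60, 4.76 and 2.64 (limma, adjusted p = 0.0559, 0.0549 and 0.0549). B01 passed on this scale, at 2.37 (limma, adjusted p = 0.0459).

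**Figure D4:**
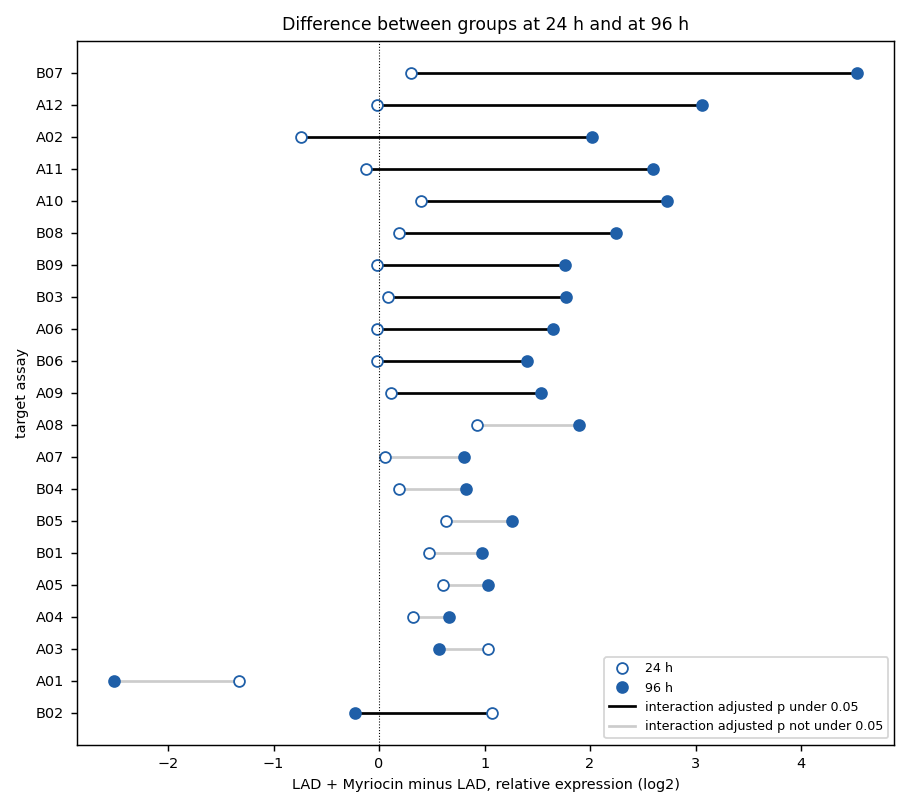
Difference between LAD + Myriocin and LAD mice in relative expression (log2, horizontal axis) at 24 h (open circles) and 96 h (filled circles) for each target assay, ordered by the limma interaction, with a black line where its adjusted p was under 0.05. The 11 assays larger at 96 h fill the upper part, with 24 h values between -0.74 (A02) and 0.40 (A10), and B02 is at the bottom with the 96 h value below the 24 h value.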

How the data were processed

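The authors reverse transcribed RNA of the at-risk area, amplified it with SYBR green chemistry for 40 cycles and deposited the Ct of each assay and mouse without normalization. How wells were combined and why combinations are empty is not given in the sources used here. A second table, with the authors' ratios to sham, was not used. Columns were matched to mice by the sample number in the labels.

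Relative expression was the reference Ct (B10, taken as RPLI, the only control the methods name) minus the target Ct. Groups were compared on their means by exact permutation, two-sided, p being 2 times the smaller tail, at an unadjusted 0.05, the threshold of the study's methods, with Benjamini-Hochberg adjustment beside it. Limma over all 38 mice gave 95% intervals and interactions. All 21 target assays are named by code, in file order within calls. The comparison, assays and tests were chosen with earlier results of these data known. Both tests were run on simulated data in which assays were independent, so the effect of shared reference readings was not covered. Tools were Python 3.11.15, NumPy 2.4.6, SciPy 1.17.1, pandas 2.3.3, matplotlib 3.10.9, R 4.3.3 and limma 3.58.1. Alternatives were other references, the linear scale, medians, limits on Ct, limma, the replicate block and each mouse left out. The limit on reference Ct, the joined B03 replicates and adjusted limma were added after the values were seen.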

Additional observations from a re-analysis of the deposited data

Results flagged for a closer look

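Dixon's criterion marked 1 mouse as apart from its group in 3 of 42 groups, which had 4 to 7 mice each; chance marks about 1 in 20, or 2.1. In B05 LAD replicate 4 was at -4.92, and its gap to the nearest mouse was 0.632 of the range of the group. In B06 LAD replicate 2 was at -1.77 with a gap of 0.903 of the range, and LAD + Myriocin replicate 2 also at -1.77 with a gap of 0.72. Both B06 mice lay toward the other group.

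The difference between LAD + Myriocin and LAD mice differed between 96 and 24 h in 12 assays by the limma interaction, adjusted over the 21 assays. On the log2 scale the 96 h difference minus the 24 h difference was 4.23 in B07, 3.07 in A12, 2.76 in A02, 2.72 in A11 and 2.33 in A10. It was 2.06 in B08, 1.78 in B09, 1.69 in B03, 1.66 in A06, 1.42 in B06 and 1.42 in A09. In B02 it was -1.30, and -1.12 without LAD replicate 2 of 24 h, which did not pass (limma adjusted p = 0.0528).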

How the results depend on the processing

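The count of 16 called assays, 15 higher and 1 lower, was 16 on the linear scale, 15 with medians, 15 and 14 with target Ct above 35 and above 32 left out, 20 and 16 with limma over 38 and over 14 mice, 20 with adjusted limma and 12 with reference Ct above 28 left out. It was 7 on target Ct alone (5 higher, 2 lower), 7 with the median reference Ct of the sample number (5 higher, 2 lower), 4 with the mean of the target assays as reference (0 higher, 4 lower) and 0 with Benjamini-Hochberg adjustment over all 6 comparisons, the exact permutation test giving 16 at an unadjusted p under 0.05. Leaving out each mouse gave 13 to 16 assays, the fewest without LAD + Myriocin replicate 1, and no assay changed direction in these 224 fits. The mean and median references take a sample number as 1 mouse in every assay, as do the counts with each mouse left out.

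Single assays turned direction as follows. On target Ct alone A05 was -2.04. Against the mean of the target assays A03 was -1.05, A04 -0.50, A05 -3.28 and B01 -0.22. With the median reference Ct A03 was -0.11 and A05 -2.56. On the linear scale B02 was 0.0657. The cause was not tested in these.

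Limma blocked on the replicate number called 17, sharing 15 with the exact test. Same-numbered mice correlated at -0.0512 in their deviations, 3 of 7 pairs were above 0.1 and 1 of 7 LAD mice correlated best with its own number. These values take a number as 1 mouse in every assay, which may not hold, so they cannot decide whether the mice are paired. The groups were compared unpaired, as in the study's methods. The block took A07 past 0.05 and brought A08 and B04 under it, and it rests on the same numbers, so these changes are not read as a result.

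The interaction count of 12 was 8 without the reference assay (7 shared), 10 with the replicate block (10 shared), 13 unadjusted, 11 to 14 with each mouse left out (B02 lost without LAD replicate 2 of 24 h) and 3 against the mean of the target assays (0 higher, 3 lower, 1 shared). The reference Ct difference of -0.139 was -0.284 to -0.00987 with each sample number left out. These ranges also take a sample number as 1 mouse in every assay. The cause of the changes was not tested.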
